A study of Mus musculus with 4 samples.

Results

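The cells described here are dividing fibroblasts of the embryonic mouse ventricle, called cycling Tcf21-type fibroblasts, 836 cell barcodes among 35351 that passed the gene and mitochondrial limits in 4 single-cell RNA-seq libraries. They were chosen by measured counts. A member had 1000 to 7000 genes and at most 10% mitochondrial unique molecular identifiers (UMIs, each marking 1 captured RNA molecule), at least 3 UMIs in sum of Tcf21, Pid1, Hpse2 and Lsp1, and at least 2 UMIs in sum of Top2a and Mki67. The fibroblast sum also had to exceed the sum of Sox9, Lum, Cthrc1 and Papss2, genes of the valve cushions. Barcodes were left out for cardiomyocyte genes (Tnnt2, Actc1, Tnnc1 and Ttn) at 0.5% or more of UMIs, for Eln and Fbln5 at 0.3% or more, for more than 1 UMI of Pecam1, Cdh5, Emcn and Egfl7 or of Upk3b, Rspo1, Tm4sf5 and Msln, and for any Tyrobp. The members came to 43.4% of the 1927 Tcf21-type fibroblasts so chosen, and the other 1091, with fewer than 2 UMIs of Top2a and Mki67, are called non-cycling below.

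Ventricles were taken at embryonic day 14.5 from C57BL/6 embryos, 3 pooled per library, and both genotypes carried Tie2Cre, a Cre recombinase driven by the Tie2 promoter in endothelial and blood-forming cells. Control embryos were Tie2Cre; Ets1 fl/+ and so had 1 floxed Ets1 allele, while endothelial knockout (eKO) embryos were Tie2Cre; Ets1 fl/fl. Each genotype had 2 libraries, embryos of both sexes were used without sexing, and no treatment was given. Controls therefore lack embryos without Cre or without a floxed allele, and the deletion was aimed at endothelial cells, although fibroblasts that descend from the endocardium could carry it. Members numbered 211 and 160 in control replicates 1 and 2 and 242 and 223 in eKO replicates 1 and 2.

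Cardiac fibroblasts arise mainly from the epicardium, the outer cell layer of the heart, and partly from the endocardium, and Tcf21 is a transcription factor that epicardial cells need to enter this lineage. They lay down the collagens and proteoglycans of the heart wall and supply growth factors to neighbouring cardiomyocytes. A dividing cell copies its DNA in S phase with replication factors such as the MCM helicase, then builds a spindle and segregates chromosomes in G2 phase and mitosis with kinesins, cyclin B and the kinases that act on them. Top2a untangles replicated DNA and Mki67 coats mitotic chromosomes.

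Promoters of many genes of G2 phase and mitosis carry a short element called the cell cycle genes homology region (CHR), read here as TTTGAA, often near a CCAAT box, read as CCAAT. Both were searched on both strands in RefSeq promoters of build GRCm38.p6, from 250 bases before to 50 bases after each gene's start. The 120 bases before the start are shown for both cycle genes of the rule and for 5 of the genes with the largest excess in cycling cells, 5′ to 3′ on the gene's strand, with either motif in capitals.
Top2a: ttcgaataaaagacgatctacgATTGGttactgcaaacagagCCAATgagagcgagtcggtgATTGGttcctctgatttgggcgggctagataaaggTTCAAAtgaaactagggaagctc
Mki67: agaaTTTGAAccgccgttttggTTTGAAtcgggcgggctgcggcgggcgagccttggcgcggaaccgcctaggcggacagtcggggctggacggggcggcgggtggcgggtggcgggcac
Kif11: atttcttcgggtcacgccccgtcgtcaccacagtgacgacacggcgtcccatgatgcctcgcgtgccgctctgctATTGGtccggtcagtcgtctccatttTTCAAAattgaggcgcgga
Iqgap3: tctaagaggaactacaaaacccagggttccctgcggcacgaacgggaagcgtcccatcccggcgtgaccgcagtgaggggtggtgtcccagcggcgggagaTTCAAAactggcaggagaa
Plk1: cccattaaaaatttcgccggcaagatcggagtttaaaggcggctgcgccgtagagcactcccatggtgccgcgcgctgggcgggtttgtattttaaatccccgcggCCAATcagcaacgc
Hist1h1b: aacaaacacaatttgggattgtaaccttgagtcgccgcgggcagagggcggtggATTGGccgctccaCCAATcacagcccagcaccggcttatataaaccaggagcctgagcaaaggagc
Nusap1: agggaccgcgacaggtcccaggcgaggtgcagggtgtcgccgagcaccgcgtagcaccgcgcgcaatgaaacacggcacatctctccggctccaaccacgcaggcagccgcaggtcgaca
These stretches lie at chr11:99024190-99024309 (minus strand) for Top2a, chr7:135716380-135716499 (minus) for Mki67, chr19:37376262-37376381 (plus) for Kif11, chr3:88081931-88082050 (plus) for Iqgap3, chr7:122159315-122159434 (plus) for Plk1, chr13:21780626-21780745 (minus) for Hist1h1b and chr2:119618178-119618297 (plus) for Nusap1.

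In the stretches shown, Top2a held 1 CHR and 3 CCAAT boxes, Kif11 held 1 of each, Mki67 held 2 CHRs and Nusap1 held neither. Of the 60 listed genes of G2 phase and mitosis, 48 matched a RefSeq promoter, and 30 of these (62.5%) held both motifs within the 300 bases, against 7.97% of all 27025 genes in the table. CHR alone was found in 72.9% of the matched list and in 20.2% of all genes, and CCAAT in 79.2% and 41.1%. Among genes of at least 20 CPM in either class that matched, 6.24% held both motifs. Of the 47 listed S phase genes only 33 matched, and of these 21.2% held CHR and 63.6% CCAAT. High CCAAT shares were therefore not particular to the G2 and mitosis list. These matches describe the letters of the windows and were not tested as binding sites.

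The count of Top2a and Mki67 separated the cells broadly. Among Tcf21-type fibroblasts, 908 had no UMI of either gene and 183 had 1, just outside the rule, while 87 had 2, 63 had 3 and 686 had more. Both genes were detected in 707 members, Top2a alone in 87 and Mki67 alone in 42. At the other limit, 24 barcodes met every clause but had 2 fibroblast UMIs, and 24 members had 3. Of the 836 members, 656 had a UMI of Tcf21, 760 of Lsp1, which encodes an actin-binding protein, 740 of Pid1 and 439 of Hpse2, which encodes an inactive relative of heparanase.

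The members held 1718311 to 3051204 UMIs per library, and eKO replicate 2 was shallower than the rest, with a median of 7173 UMIs per member against 11884 to 13316 in the other libraries. Within each library non-cycling cells were shallower than members, with medians of 4996.5 to 8085.5 UMIs. Pairs of libraries shared 19 to 47 barcodes, none of them between members. Doublets were not removed, and 16 members lay among the barcodes with the highest doublet scores, 10 of them in control replicate 2. Levels below are CPM, a gene's UMIs over all UMIs of the members of a library, scaled to the same total in each, listed for control 1, control 2, eKO 1 and eKO 2 in that order.

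Abundant markers that the rule did not use were those of mesenchymal cells that make matrix. Other genes of the fibroblast identity list were low. Thy1 averaged 3.55 CPM in members with more G2 and mitosis UMIs and 4.86 CPM in those with more S phase UMIs, a split given below. Dpt averaged 17.9 and 28.2 CPM in the same groups. Vim, an intermediate filament of mesenchymal cells, stood at 2702, 2413, 2420 and 2959 CPM, Col3a1 at 1838, 1668, 2034 and 1616 CPM, and the small proteoglycan Dcn at 953, 762, 907 and 996 CPM. Wt1, a transcription factor of epicardial cells and their early derivatives, was kept at 117 to 155 CPM. The 11 epicardial markers, Wt1 among them, summed to 252, 278, 219 and 243 CPM. Only 3 of the 11 reached 20 CPM in either class, and 2 had no count in members. Vim, Col3a1, Dcn and Wt1 do not tell fibroblasts from cushion mesenchyme, whose 12 markers outside the rule summed to 1776, 1787, 1414 and 1547 CPM. Most of that sum was Tbx20, which is also in the fibroblast identity list, at 1124, 1156, 888 and 943 CPM, and Sox4, at 473, 458, 401 and 427 CPM. Cartilage-type cushion genes were low, with Col2a1 at 0 to 1.31 CPM and Col9a1 at 0.582 to 5.86 CPM. The 10 immune markers summed to 8.56 to 14.0 CPM and the 10 neural markers to 27.9 to 47.7 CPM. The 15 cardiomyocyte markers outside the rule summed to 749, 370, 577 and 874 CPM, the 14 endothelial ones to 361, 315, 246 and 331 CPM, and none of either list was at 0. The 9 erythroid markers summed to 376, 63.1, 2583 and 4795 CPM, far apart between libraries.

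Cycling and non-cycling cells were then set side by side. Because the rule chose this contrast, it is given as a description with no test. Top2a stood at 722, 766, 798 and 674 CPM in members against 12.1 to 14.7 CPM in non-cycling cells, and Mki67 at 446, 453, 444 and 363 CPM against 5.42 to 13.4 CPM. Among genes outside the rule, Esco2, an acetyltransferase that ties sister chromatids together in S phase, had the largest excess, at 66.9, 72.1, 70.8 and 64.6 CPM against 0.392 to 1.92 CPM. The spindle protein Nusap1 stood at 163, 178, 200 and 171 CPM against 1.96 to 6.39 CPM, and the spindle motor Kif11 at 165, 174, 152 and 149 CPM against 3.01 to 7.67 CPM. The mitotic kinase Plk1 was at 62.9, 74.3, 75.1 and 69.3 CPM against 0 to 5.75 CPM. Members of each library lay far above the non-cycling cells of every library for these genes, and varied little between libraries.

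**Figure D1:**
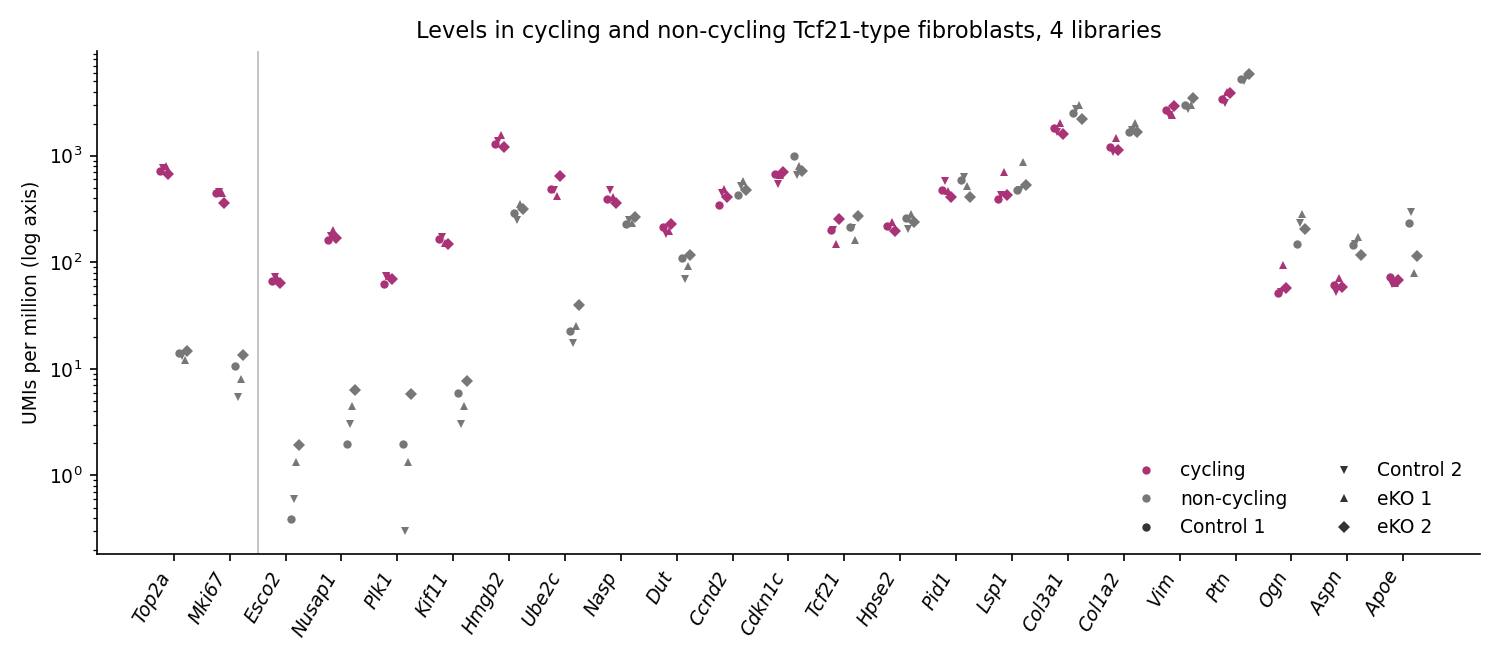
CPM (log axis) of genes in cycling (purple) and non-cycling (grey) Tcf21-type fibroblasts, with 1 marker per library as in the key; Plk1 was at 0 in non-cycling cells of control 2 and is drawn at 0.3. Top2a and Mki67, left of the grey line, chose the cells; the mitotic genes to their right are separated by class, while Tcf21, Hpse2 and Pid1 overlap between classes, and Ogn, Aspn and Apoe lie lower in cycling cells.

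Of the 10 genes with the largest excess in members, 5 were replication-dependent histone genes. Hist1h1b, a linker histone, stood at 1037, 1015, 966 and 872 CPM against 15.7 to 30.0 CPM. Hist1h2ap, by contrast, ranged from 74.9 CPM in control 1 to 413 CPM in eKO 1. Histone genes of a cluster are near copies of each other, so the split of counts among them is uncertain.

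Of the 59 listed genes of G2 phase and mitosis with at least 20 CPM in either class, 59 were higher in members in 4 of 4 libraries, with a median ratio of 15.5. Of the 44 such S phase genes 40 were higher, with a median ratio of 2.05. Over all 7038 genes of that level, 26.0% were higher and 21.6% lower in members in 4 of 4 libraries. The S phase genes were also present in non-cycling cells, where they summed to 1776 to 2008 CPM against 3559 to 3939 CPM in members. The G2 and mitosis genes summed to 1074 to 1503 CPM in non-cycling cells against 9580 to 10007 CPM in members. G1 regulators were divided, with 7 of 17 higher and 4 lower. Cdkn1c, an inhibitor of cyclin-dependent kinases, stood at 669, 540, 659 and 707 CPM in members and at 996, 661, 804 and 712 CPM in non-cycling cells.

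Many genes of the differentiated fibroblast were lower in members, as were many of other kinds. Of 16 fibroblast identity genes 12 were lower in 4 of 4 libraries, as were 11 of 19 collagens, 12 of 17 matrix enzymes and inhibitors and 13 of 20 secreted factors. Matrix glycoproteins were lower in 10 of 23 cases and proteoglycan and hyaluronan genes in 6 of 13. Lists unrelated to fibroblast identity were lower as well, with 59 of 87 ribosomal protein genes and 11 of 13 mitochondrially encoded respiratory chain genes. Ogn, a small leucine-rich proteoglycan of the matrix, stood at 51.3, 52.7, 95 and 57.0 CPM in members against 149, 232, 281 and 205 CPM in non-cycling cells. Aspn, of the same family, stood at 61.5, 52.3, 71.4 and 58.8 CPM against 144, 148, 172 and 116 CPM. Ptn, a secreted heparin-binding growth factor and the most abundant of the secreted list, stood at 3426, 3104, 3980 and 3882 CPM against 5067 to 5894 CPM. Other genes low in members were Cemip, Kcnh7, Khdrbs2, Nlgn1, Abi3bp, Rgs6, Apoe and Thsd7b. The rule's 4 fibroblast genes chose the cells of both classes. A fixed floor of 3 UMIs asks for a higher CPM in the shallower non-cycling cells, so the ratios of these genes do not show a difference between classes. Tcf21, Pid1 and Lsp1 were lower in 4 of 4 libraries, at ratios of 0.93, 0.90 and 0.83, and Hpse2 stood at 0.88. Tcf21 was at 200, 200, 149 and 254 CPM in members and at 216, 209, 163 and 271 CPM in non-cycling cells. Members held more UMIs than non-cycling cells, and with each cell thinned at random to 4000 UMIs 3257 of the 3337 genes outside the rule with 1 direction in 4 of 4 libraries kept it on average and 80 did not, and the 20 genes that led in either direction all kept theirs.

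Members were next split by which of the phase lists gave more UMIs. After thinning to 4000 UMIs, 622 members had more UMIs of the G2 and mitosis list than of the S phase list and 181 had more S phase UMIs. They are called G2 and mitosis members and S phase members below. The median member had 12 to 14 S phase UMIs and 32 to 38.5 G2 and mitosis UMIs, depending on the library. The split sets raw sums of 60 genes against 47, so it gives a lean and not the share of cells in a phase. At least 5 UMIs of both lists were held by 194 of 209, 143 of 158, 216 of 237 and 190 of 210 members. How far the choice by Top2a and Mki67 shaped the split was not tested. Genes of these lists follow from that split. Ccnb1, the cyclin of mitotic entry, stood at 127, 136, 125 and 136 CPM in the G2 and mitosis members against 1.77 to 20.7 CPM in the S phase members. Cyclin E2, Ccne2, stood at 53.1, 50.9, 75.0 and 50.2 CPM in the S phase members against 12.5 to 16.6 CPM in the others. Of genes outside both lists, Col3a1 was at 1781 ± 236 CPM in the G2 and mitosis members and at 1788 ± 84.4 CPM in the S phase members (mean ± SD, n = 4 libraries). Pdgfra, a growth factor receptor of fibroblasts, was at 173 ± 41.2 against 116 ± 14.0 CPM, and Tcf21 at 210 ± 42.9 against 163 ± 38.1 CPM. Both were higher in the G2 and mitosis members in 4 of 4 libraries, although the ranges over libraries overlapped. Of the 17 fibroblast identity genes 3 were higher there in 4 of 4 libraries, namely Pdgfra, Vim and Gata4, while 4, namely Ogn, Dpt, Mfap4 and Ddr2, were higher in 1 of 4. Ogn was at 59.7 ± 21.3 CPM in the G2 and mitosis members and at 84.7 ± 28.9 CPM in the S phase members, so the list had no common direction.

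Whether Ets1 eKO hearts held more or fewer cycling fibroblasts was asked with cycling called at equal depth. The Tcf21-type fibroblasts themselves were chosen on all their UMIs. With each Tcf21-type fibroblast thinned to 4000 UMIs, 32.9% (95% exact binomial interval 28.8 to 37.2%, 504 cells) and 37.6% (32.5 to 42.8%, 354 cells) were cycling in control replicates 1 and 2. In eKO replicates the shares were 38.0% (33.7 to 42.5%, 497 cells) and 42.1% (37.4 to 46.9%, 432 cells). The eKO shares lay above the control shares by 4.83 percentage points on average, but control 2 and eKO 1 were nearly level (exact permutation test over libraries, two-sided, p = 0.333, the smallest that 2 against 2 libraries allow). The difference was 0.70 points at 2000 UMIs and 13.8 points at 6000 UMIs, a depth at which 292 cells of eKO 2 were left out and 63.5% of its remaining 233 were cycling. It was 2.51 points without control 1, 7.14 without control 2, 6.88 without eKO 1 and 2.77 without eKO 2. Cells under 4000 UMIs were left out, 93 of them in eKO replicate 2 and 11 to 24 in the other libraries, 80 of those 93 being non-cycling, and without thinning the shares averaged 42.3% and 44.5%, with eKO 2 (42.5%) below control 2 (43.7%). The whole rule was also applied to counts thinned to 4000 UMIs. It gave 145 cycling and 295 non-cycling cells in control 1, and 111 and 180 in control 2. In eKO 1 it gave 159 and 283, and in eKO 2 157 and 238. The cycling share was then higher in control 2 than in eKO 1, so the groups overlapped. The level of the share depended on how cycling was called: with at least 3 UMIs of the G2 and mitosis list at 4000 UMIs, it averaged 77.6% in controls and 83.2% in eKO, so many cells called non-cycling here held some of those UMIs. At 4000 UMIs the difference was 5.80 points with doublet scores removed and 6.15 with stricter limits on other cell types. It was 4.02 with at least 1 UMI of Top2a and Mki67 and 3.84 with at least 3. The groups did not overlap in these settings (p = 0.333 in each by the same exact test). With 2 against 2 libraries a difference beyond the spread between libraries could be neither shown nor excluded, and intervals cover counting error only. As a guide to background from free RNA, 28 of 145 barcodes with at least 20% hemoglobin and no UMI of the fibroblast genes (19.3%, 13.2 to 26.7%) had 2 or more UMIs of Top2a and Mki67 at the same depth. By library these were 1 of 24 barcodes in control 1, none of only 6 in control 2, 9 of 32 in eKO 1 and 18 of 83 in eKO 2, so nearly all came from eKO libraries and the guide is not equal between genotypes. Their median depth before thinning was 11896 to 19417.5 UMIs by library. Erythroid precursors divide as well, and the part of such background in the cycling shares was not tested.

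The share of members with more G2 and mitosis than S phase UMIs was 76.6% (70.2 to 82.1%) and 79.1% (71.9 to 85.2%) in controls and 73.4% (67.3 to 78.9%) and 77.6% (71.4 to 83.1%) in eKO. At 4000 UMIs the groups overlapped, and the mean difference was -2.32 percentage points (exact permutation test, two-sided, p = 0.667). It turned to 2.97 points at 2000 UMIs, was -4.40 points at 6000 UMIs, where the groups did not overlap (p = 0.333 by the same exact test), and ranged from -4.42 without eKO 2 to -0.22 without eKO 1.

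**Figure D2:**
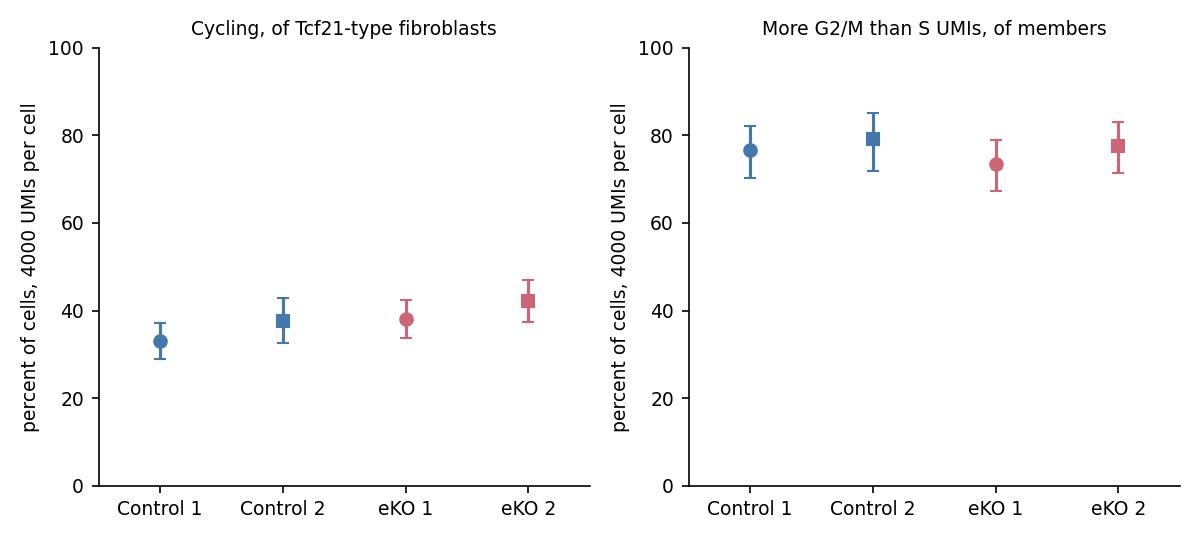
Percent of Tcf21-type fibroblasts that were cycling (left) and percent of members with more G2 and mitosis than S phase UMIs (right), by library at 4000 UMIs per cell, with exact 95% binomial intervals as bars. Cycling shares run from 32.9% in control 1 to 42.1% in eKO 2, and the phase shares of the groups overlap.

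Gene levels in members were then compared between eKO and control, with edgeR's quasi-likelihood test on counts summed per library. Of 10981 genes tested 8 (0.0729%) passed an adjusted p of 0.05, 6 of them higher (0.0546%) and 2 lower (0.0182%) in eKO, while 674 genes (6.14%) had an unadjusted p under 0.05. All 6 higher genes encode hemoglobin chains. Hbb-y, an embryonic beta-like globin, stood at 25.1, 7.66, 599 and 2074 CPM, with a log2 fold change of 6.38 (SE 0.57, adjusted p 0.00016). Hba-x, Hba-a1, Hbb-bt, Hba-a2 and Hbb-bs had log2 fold changes of 3.04 to 5.95 and did not overlap between groups. Hba-a1 and Hba-a2 are near copies, so their split is uncertain.

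Most of these hemoglobin UMIs lay in 3 barcodes. One member of eKO 1 held 7420 of that library's 7870 hemoglobin UMIs, which made up 32.1% of its own UMIs, and 1 of eKO 2 held 7915 of 8234, or 54.5% of its own. One member of control 1 held 581 of 1027, and the most in any member of control 2 was 5 of 136. These 3 barcodes carried 4 to 20 UMIs of Top2a and Mki67 and 6 to 15 of the fibroblast genes. Without members of over 2% hemoglobin, a step added after the data were seen, hemoglobin stood at 163, 61.3, 149 and 187 CPM, and 0 of 10973 genes (0%) passed the edgeR test, with 671 at an unadjusted p under 0.05. DESeq2, run on all members, called 2 genes. In non-cycling cells hemoglobin stood at 1255, 80.2, 205 and 14123 CPM, so the groups overlapped there, and 5 of those cells were over 2% hemoglobin.

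**Figure D3:**
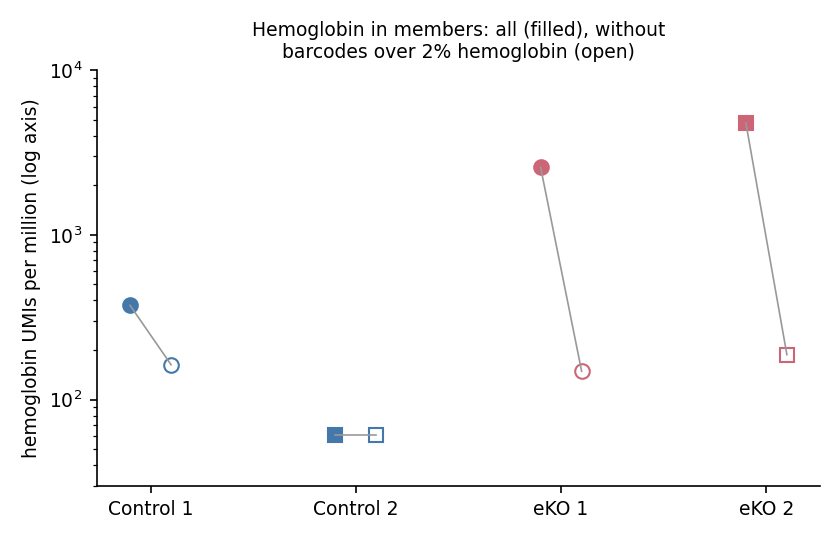
Hemoglobin level (CPM) in members of each library (log axis), with all members (filled) and without barcodes of over 2% hemoglobin (open); circles are replicate 1 and squares replicate 2. Leaving out 1 member lowered eKO 1 from 2579 to 149 and eKO 2 from 4792 to 187.

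Both genes that were lower in eKO encode neuronal surface proteins. Sorcs2, a sorting receptor, stood at 46.6, 40.1, 18.0 and 14.5 CPM (log2 fold change -1.31, SE 0.22, adjusted p 0.0499) and was detected in 79, 55, 41 and 22 members. Lingo2, a leucine-rich repeat protein, stood at 12.4, 14.9, 1.97 and 0 CPM (log2 fold change -3.32, SE 0.56, adjusted p 0.0499). Its counts were 34, 33, 6 and 0 UMIs in 11, 6, 3 and 0 members, and 1 member held 45.5% of them in control 2. Without eKO 1 the fitted value of Lingo2 was -7.90 and without eKO 2 it was -2.68, so its size is uncertain. Without the hemoglobin-rich barcodes both had an adjusted p of 0.0977, with log2 fold changes of -1.32 for Sorcs2 and -3.31 for Lingo2, nearly as before. The genes next in line also fell short of the threshold. Il1rapl2, an interleukin 1 receptor accessory-like protein, stood at 83.7, 59.5, 33.1 and 19.2 CPM (adjusted p 0.0749). Npy, a neuropeptide, stood at 10.2, 11.3, 0 and 1.75 CPM (adjusted p 0.0749), with 84.0% of its counts in 1 member of control 2. Plcl1, a phospholipase C-like protein, stood at 87.3, 86.0, 49.8 and 37.8 CPM (adjusted p 0.132).

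Once the hemoglobin-rich barcodes were left out, Tagln had the smallest p among genes with higher values in eKO, though not the largest fold. It encodes transgelin, an actin-binding protein of smooth muscle and contractile fibroblasts, and stood at 149, 127, 264 and 211 CPM with all members (log2 fold change 0.86, SE 0.17, adjusted p 0.152). Fjx1 stood at 28.7, 39.2, 58.0 and 63.4 CPM and Dpp4, a surface peptidase, at 14.2, 14.4, 26.5 and 34.3 CPM (adjusted p 0.216 for both). None passed the test, although the groups did not overlap for any of the 3.

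Ets1 itself stood at 131, 113, 89.8 and 82.6 CPM in members, with a log2 fold change of -0.42 (SE 0.15, adjusted p 0.734), and at 126, 124, 73.9 and 79.2 CPM in non-cycling cells. The groups did not overlap in either class, but the difference did not pass the test. 3′ counts can fall outside a deleted part, so these values do not check the genotype, and whether some members descend from endocardium and carry the deletion was not tested. Of the genes the study followed in endothelium, Slit2, a secreted guidance protein, was abundant in these fibroblasts at 1407, 1431, 1241 and 1142 CPM (log2 fold change -0.17, SE 0.17). Hmcn1, a matrix protein, stood at 135, 184, 168 and 144 CPM and Col18a1 at 56.0, 63.1, 77.3 and 56.5 CPM, with overlapping groups. Nrg1, a growth factor for cardiomyocytes, stood at 17.5, 25.2, 9.18 and 15.7 CPM (log2 fold change -0.76, SE 0.31, adjusted p 0.758). None of the 11 genes of this list that were tested passed.

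No fixed list other than the erythroid one held a called gene, so lists are described by counts and medians. Over all genes tested, groups did not overlap for 10.9% with eKO higher and for 27.1% with eKO lower, and the median log2 fold change was 0.01, or -0.07 without TMM scaling. The 47 S phase genes had a median of -0.01, with 3 higher and 9 lower without overlap, and the 60 genes of G2 phase and mitosis had a median of 0.09, with 9 higher and 6 lower. Hmgb2, a chromatin protein and the most abundant of that list, stood at 1286, 1368, 1573 and 1197 CPM, and the ubiquitin-conjugating enzyme Ube2c at 491, 481, 415 and 644 CPM. Cell cycle genes thus overlapped between genotypes in most cases.

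The 19 collagens had a median log2 fold change of 0.14, from -0.36 to 0.59, with 4 higher and 1 lower without overlap. The 26 matrix glycoproteins had a median of -0.09, with 2 higher and 10 lower, and the 15 proteoglycan and hyaluronan genes -0.04, with 2 higher and 7 lower. Col1a2 stood at 1198, 1083, 1461 and 1136 CPM and fibronectin, Fn1, at 708, 770, 692 and 554 CPM. The 11 contractile and myofibroblast genes had a median of 0.37, with 6 higher and 1 lower without overlap. In non-cycling cells their median was 0.33, so this lean was not particular to members. Tpm1, a tropomyosin, stood at 574, 672, 912 and 803 CPM (log2 fold change 0.54, SE 0.17, adjusted p 0.606) and Acta2, smooth muscle actin, at 353, 374, 476 and 414 CPM (log2 fold change 0.37, SE 0.16, adjusted p 0.78). Smooth muscle and pericyte markers, which share genes such as Acta2 and Tagln with that list, summed to 823, 774, 1007 and 863 CPM. Cardiomyocytes also express Tpm1, and their 15 markers outside the rule, whose sums are given above, had a median log2 fold change of 0.41, with 1 higher and 1 lower without overlap. The part of either cell type in the contractile values was not tested.

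The 34 growth factor and guidance receptors had a median of -0.20, with 1 higher and 16 lower without overlap. Markers of other cell types outside the rule also leaned lower. The 8 cushion mesenchyme markers tested had a median of -0.16 and the 9 endothelial ones -0.22, each with 0 higher and 5 lower without overlap. The part of these cell types in the receptor values was not tested. Robo2, a receptor of Slit proteins, stood at 479, 615, 361 and 296 CPM (log2 fold change -0.65, SE 0.18, adjusted p 0.492). Of the Wnt pathway, the 11 genes tested had a median of -0.17, and Tcf7l1, a transcription factor that represses Wnt targets, stood at 242, 265, 148 and 145 CPM (log2 fold change -0.71, SE 0.15, adjusted p 0.236). Sfrp1, a secreted Wnt inhibitor, stood the other way, at 172, 186, 252 and 224 CPM. The 12 Notch pathway genes had a median of -0.18, the 14 TGF-beta and BMP response genes -0.12, the 90 ribosomal protein genes 0.19 and the 94 nuclear respiratory chain genes 0.18. None of these genes passed the test. In non-cycling cells the medians were -0.25 for the receptors, -0.25 for Wnt, -0.21 for Notch and -0.18 for TGF-beta and BMP response. Ribosomal protein genes and nuclear respiratory chain genes both had 0.24 there, so these leans were not particular to members.

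**Figure D4:**
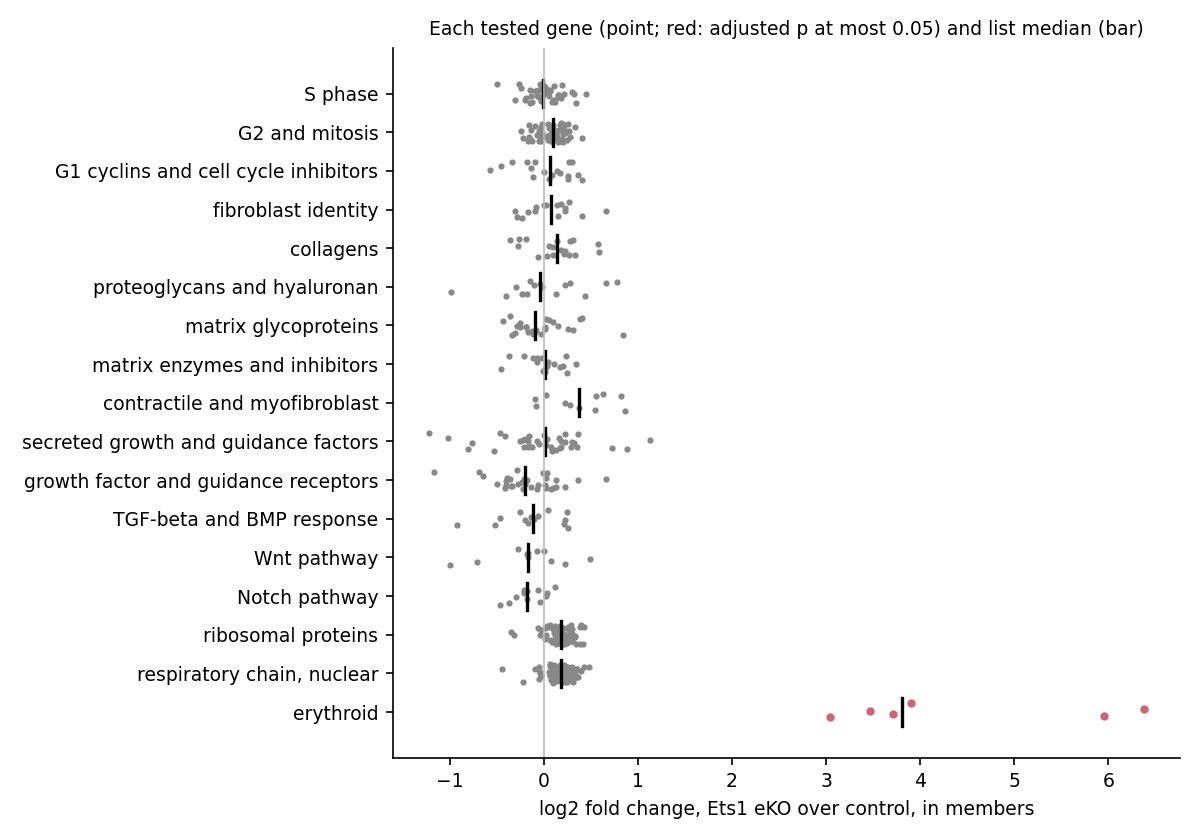
Log2 fold change of eKO over control in members for each tested gene (points) of the gene lists, with the list's median as a black bar and genes at an adjusted p of at most 0.05 in red. The 6 hemoglobin genes are the only red points, and most other genes lie within 1 of 0.

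The makeup of the pools also differed. Xist, which is expressed from the inactive X chromosome of females, stood at 0, 302, 230 and 565 CPM in members, and the Y-linked Ddx3y at 70.6, 35.6, 37.0 and 2.33 CPM. Of the 6 sex-linked genes 5 had an unadjusted p under 0.05 and none passed the adjusted threshold. With 3 embryos in a pool, sex and genotype cannot be fully told apart, and the part of sex in the values above was not tested.

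Finally, the difference of the eKO effect between cycling and non-cycling cells was tested as a class by condition term with the library as a block. Of 11326 genes 5 (0.0441%) passed. Without hemoglobin-rich barcodes 5 of 11354 (0.0440%) passed, of which 4 were shared, since Malat1 was lost and Lrrtm4, named here after its values were seen, was gained. Apoe, which encodes the lipid carrier apolipoprotein E, was level in members at 72.0, 63.1, 63.3 and 67.5 CPM. In non-cycling cells it stood at 234 and 295 CPM in controls and at 79.2 and 116 CPM in eKO. The effects differed by 1.38 on the log2 scale (SE 0.17, adjusted p 4.99e-05). No single cell held more than 11.1% of the Apoe counts in the non-cycling cells of a library, or more than 17.1% in the members. In non-cycling cells alone 1 of 10598 genes (0.00944%) passed, and Apoe missed the threshold (log2 fold change -1.34, SE 0.20, adjusted p 0.0524). Immune cells also express Apoe. The rule removed barcodes with any Tyrobp, immune markers summed to 16.5, 13.3, 10.3 and 23.0 CPM in non-cycling cells, and the part of immune cells or their free RNA in the Apoe values was not tested.

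Il1rapl2 had the reverse pattern, with lower values in eKO members, given above, and 38.8, 21.1, 39.4 and 26.2 CPM in non-cycling cells, where groups overlapped (difference -1.58, SE 0.25, adjusted p 0.0017). In control 2, 1 member held 32.6% of the Il1rapl2 counts of members. Adamts19, a secreted metalloprotease, stood at 19.6, 27.5, 35.1 and 34.9 CPM in members and at 57.2, 136, 64.0 and 33.9 CPM in non-cycling cells (difference 1.37, SE 0.27, adjusted p 0.0279). Its difference was 0.95 without control 2 and 2.00 without eKO 1. Malat1, a nuclear long non-coding RNA, stood at 7511, 7520, 10983 and 7747 CPM in members and at 8652, 10644, 11426 and 7610 CPM in non-cycling cells (difference 0.30, SE 0.06, adjusted p 0.0212). Without hemoglobin-rich barcodes its difference was nearly the same, 0.30, with an adjusted p of 0.154, and without control 2 it was 0.16 (adjusted p 0.287). Pcdh15, a protocadherin, passed on few counts, 1, 4, 18 and 3 UMIs in members (difference 4.18, SE 0.81, adjusted p 0.0279), and 1 cell held 63.4% of its counts in the non-cycling cells of control 2. Without eKO 1 the difference of Pcdh15 was 3.16. DESeq2 called 0 genes for this term, with 33 at an unadjusted p under 0.05, and without control replicate 2 edgeR called 0, with 498 at an unadjusted p under 0.05.

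**Figure D5:**
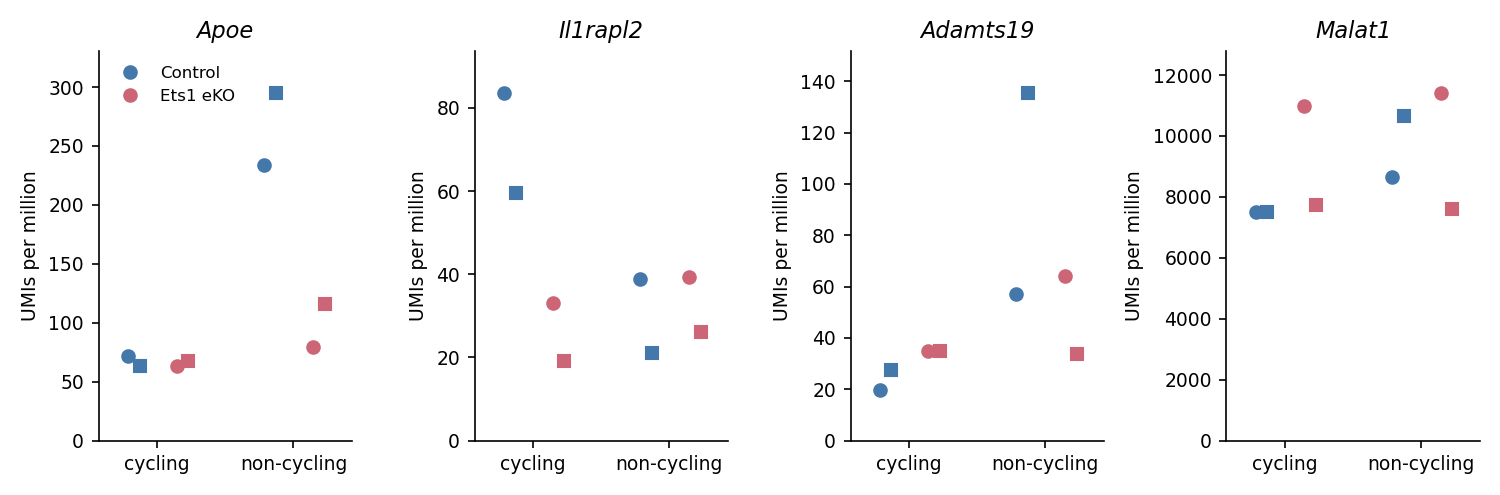
CPM of genes in cycling and non-cycling Tcf21-type fibroblasts of control (blue) and eKO (red) libraries, with replicate 1 as circles and replicate 2 as squares. Apoe is level among members, at 63.1 to 72.0, and separated by genotype in non-cycling cells; Il1rapl2 is separated in members only, a difference tested by the class by condition term.

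The named genes lie, in build GRCm38 (GENCODE vM21), at chr10:22817281-22820174 for Tcf21, chr19:42786539-43388355 for Hpse2, chr11:98992943-99024189 for Top2a, chr7:135689784-135716361 for Mki67, chr9:32636221-32757820 for Ets1, chr5:36017180-36398139 for Sorcs2, chr4:35706647-36951747 for Lingo2, chr9:45929619-45936058 for Tagln, chr7:19696109-19699188 for Apoe and chrX:137570608-138846946 for Il1rapl2. Counts were made per gene, so no value above is resolved to an exon.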

How the data were processed

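Libraries were made with the 10x Genomics 3′ kit (v3.1), and the deposited files hold UMI counts per gene and barcode, which the authors made with Cell Ranger 7.1.0 on build mm10; Seurat 4.3.0 is also named in the submitters' processing notes. The barcode and gene lists that go with them were used as deposited. From these counts the members were chosen by the rule given above. The members and the gene lists were chosen with earlier results of these data known. Named genes were the genes of the rule and of the study, those past the threshold (or, under 5 in a direction, the smallest p), the 2 most abundant of each list, 10 in each direction between the classes, and the 5 smallest p in each direction for the class by condition term. The smallest p in each direction without hemoglobin-rich barcodes was added after the data were seen, as were the genes printed for the phase split.

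For each library, the counts of a class were added up, and the sums went into edgeR 4.0.16 (TMM, filterByExpr, glmQLFit and glmQLFTest, Benjamini-Hochberg over all genes tested) in R 4.3.3, with DESeq2 1.42.0 as an alternative. The scripts were tested on simulated data. The standard error was taken from the quasi-likelihood F. Doublet scores came from scrublet in scanpy 1.11.5. Shares were compared after thinning with an exact permutation test over libraries. All 4 libraries carry the same batch label and each pools 3 embryos. The p-values of eKO against control measure the spread between 2 pools per genotype. Those of the class by condition term, with library as a block, rest on how the difference between classes varies among libraries of a genotype. Depth is that of the members' summed counts. In bulk sums, fewer cells of a type and less RNA per cell cannot be told apart. Alternatives tried were scaling, filtering, DESeq2, other choices of members, thinning depth, each library left out, and blocks by replicate number.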

Additional observations from a re-analysis of the deposited data

Results flagged for a closer look

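The effect of genotype differed between cycling and non-cycling Tcf21-type fibroblasts for 5 genes by the class by condition term of edgeR (adjusted p at most 0.05). Positive values mean a higher eKO over control ratio in cycling cells. The differences on the log2 scale were 1.38 for Apoe, -1.58 for Il1rapl2, 0.30 for Malat1, 4.18 for Pcdh15 and 1.37 for Adamts19. Over the alternatives the difference of Apoe ranged from 1.08 to 1.65 and its adjusted p from 7.88e-16 to 0.143, and it was past the threshold in 11 of 14 fits. That of Il1rapl2 ranged from -1.85 to -1.20 and passed in 10 of 14 fits. Malat1 passed in 6 of 14, Pcdh15 in 9 of 13 and Adamts19 in 9 of 14. No group had 4 or more libraries, so no library could be tested as an outlier.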

How the results depend on the processing

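For eKO against control in members (8 genes called), total count scaling called 9 and leaving out each library in turn 33 to 109, where a lone library is assumed to vary like the others. No filter on low counts called 72, DESeq2 2, and at least 3 UMIs of Top2a and Mki67 4. Counts of 0 came from edgeR with doublet scores removed, stricter limits on other cell types, the rule on thinned counts and part of the study's cell filter (its limits on genes, mitochondrial, ribosomal and hemoglobin content), with 646, 594, 555 and 658 genes at an unadjusted p under 0.05, and from the removal of hemoglobin-rich barcodes. Sizes held better than calls: in those 4 fits Sorcs2 was -1.40 to -1.11 and Lingo2 -4.90 to -3.05, while Hbb-y was 4.88 to 6.04, or 1.52 under the study's limits. The cause of these shifts was not tested, except that hemoglobin calls need those barcodes. With the replicate number as a block 41 genes were called, and 58 with the pairing crossed, a fit added after the data were seen. Same-numbered libraries share only a number, and their deviations correlated at -0.10 over genes tested and -0.18 over genes of at least 20 CPM.

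For the class by condition term (5 called), no filter called 17, at least 3 UMIs 12, stricter limits 3, DESeq2 and the rule on thinned counts 0 (33 and 457 genes at an unadjusted p under 0.05), and leaving out each library 0 to 32, with 0 without control replicate 2.

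The difference in cycling share (4.83 points) was 0.70 at 2000 UMIs and 13.8 at 6000 UMIs, 4.83 with the replicate block and 2.51 to 7.14 with each library left out. With the whole rule applied to thinned counts, the groups overlapped, with control 2 above eKO 1. The difference in phase share (-2.32 points) was reversed at 2000 UMIs (2.97), was -2.32 with the replicate block, and ranged from -4.42 to -0.22 with each library left out. The cause was not tested.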
